A study of Mus musculus with 10 samples.

Results

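Cohesin is a ring-shaped protein complex that holds sister chromatids together and folds chromosomes into loops. The genes described here are 10 cohesin subunits, loaders, releasing factors and modifiers among 22180 genes measured. They are Smc1a, Smc3, Rad21, Stag1, Stag2, Nipbl, Wapl, Pds5a, Pds5b and Esco2. Each had a single probe set on the array, so 10 probe sets stand for the 10 genes and no choice between probe sets was needed. The samples were mouse embryonic fibroblasts (MEFs), cultured from the dorsal skin of E13.5 embryos, of which 5 were Zbtb4 knock-out and 5 wild type. No treatment, strain, knock-out allele or passage is given in the labels, and 1 array was hybridised per sample. Zbtb4 encodes a transcriptional repressor with zinc fingers that recognise methylated CpG, and the study looked for transcripts that depend on this protein. The values are log2 expression values per probe set, so a difference of 1 is a doubling of the signal.

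Smc1a, Smc3 and Rad21 form the ring, and Stag1 or Stag2 attaches to it as an alternative further subunit. Nipbl, with its partner Mau2, loads the ring onto DNA and drives loop extrusion, while Wapl, held by Pds5a or Pds5b, opens it again. Esco1 and Esco2 acetylate Smc3, and in replicating cells sororin, encoded by Cdca5, then shields the ring from Wapl until mitosis, when separase cuts Rad21. Esco2 acts in S phase, whereas the core subunits are needed throughout the cell cycle.

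Promoters are shown for members whose values are described together below, because Zbtb4 binds DNA through methylated CpG. The RefSeq table used here (GRCm38.p6) held a promoter for 6 members, namely Smc1a, Smc3, Stag1, Wapl, Pds5a and Pds5b. The 250 bases before the transcription start of 4 of them follow, 5′ to 3′ on the gene's strand, with each CpG in capitals. Smc1a lies at chrX:152016178-152016427, Smc3 at chr19:53600146-53600395, Pds5b at chr5:150673577-150673826 and Stag1 at chr9:100643198-100643447, all on the plus strand.
Smc1a: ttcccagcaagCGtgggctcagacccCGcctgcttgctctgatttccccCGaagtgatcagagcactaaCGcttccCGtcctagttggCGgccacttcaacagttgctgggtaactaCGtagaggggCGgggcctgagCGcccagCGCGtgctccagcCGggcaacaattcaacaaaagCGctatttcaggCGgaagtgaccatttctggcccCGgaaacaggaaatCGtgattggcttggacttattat
Smc3: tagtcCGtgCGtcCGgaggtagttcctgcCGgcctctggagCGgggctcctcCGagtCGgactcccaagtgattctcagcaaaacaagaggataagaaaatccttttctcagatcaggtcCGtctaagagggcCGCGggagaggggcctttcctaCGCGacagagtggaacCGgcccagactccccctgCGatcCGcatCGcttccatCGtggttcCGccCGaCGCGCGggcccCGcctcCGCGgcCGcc
Pds5b: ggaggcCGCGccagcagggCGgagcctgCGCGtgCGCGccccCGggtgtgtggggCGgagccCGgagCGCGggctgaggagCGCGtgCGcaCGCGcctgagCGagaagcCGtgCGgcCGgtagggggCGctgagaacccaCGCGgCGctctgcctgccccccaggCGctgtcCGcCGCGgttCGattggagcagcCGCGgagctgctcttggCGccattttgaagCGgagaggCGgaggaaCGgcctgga
Stag1: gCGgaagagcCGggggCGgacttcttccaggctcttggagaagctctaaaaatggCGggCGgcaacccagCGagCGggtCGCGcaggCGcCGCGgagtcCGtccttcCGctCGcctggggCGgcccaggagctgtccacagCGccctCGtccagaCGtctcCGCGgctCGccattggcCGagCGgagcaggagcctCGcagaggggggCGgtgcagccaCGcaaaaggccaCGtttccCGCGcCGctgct

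All of the 6 promoters were rich in CpG. They held 16 CpG in Smc1a, 26 in Smc3, 31 in Stag1, 32 in Wapl, 36 in Pds5b and 44 in Pds5a, against a median of 6 over 32851 promoter windows of the same length. Of all windows, 25.4% held at least the 16 CpG of Smc1a. The word CGCG, which itself holds CpG, was found in all 6, once in Smc1a and 12 times in Pds5a, and in 33.8% of all windows. Windows of like CpG content were not compared. The word CTGCNA, described as an unmethylated target of Zbtb4 and of its relative Kaiso and searched on both strands, was found in Smc3 and Stag1 and in 41.3% of all windows. Such matches describe the letters and not binding, and methylation was not measured here.

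The cultures carried fibroblast markers, and the targeted gene was lower in the knock-out. All 12 fibroblast markers lay above the median gene, with means from 5.73 to 12.12. The mean log2 value of Zbtb4 was 5.45 ± 0.27 in the knock-out against 6.07 ± 0.11 in the wild type (SD, n = 5 each; exact permutation p = 0.00794, the smallest that 5 against 5 arrays can give). Its limma adjusted p was 0.628, and where its probes lie relative to the deletion is not stated. Macrophage markers had 9 of 10 means higher in the knock-out, with a summed level, given as the mean of 10 genes, from 4.15 to 5.60 in the knock-out and from 4.50 to 4.84 in the wild type. Endothelial markers had 7 of 9 higher and averaged 3.52 to 3.72 in the knock-out and 3.37 to 3.72 in the wild type. The groups did not overlap for 2 of the 9, Cdh5 and Esam, and for 0.987% of all genes. Cdh5, a junction protein of endothelium, ran from 3.23 to 3.84 in the knock-out and from 2.80 to 3.17 in the wild type, a difference of 0.61 (limma adjusted p = 0.628; exact permutation p = 0.00794). Esam differed by 0.18 (limma adjusted p = 0.824). Of the 9 endothelial markers, 1 lay above the median gene, Emcn, which differed by 0.023. Kdr, the next brightest, differed by -0.19, and Cdh5 and Esam lay below the median gene. The part of other cell types in the results below was not tested. The labels do not tie the samples to separate embryos, and a p-value here reflects the spread between samples, which may be technical. In bulk RNA, fewer cells that express a gene and less RNA per cell cannot be told apart.

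All 10 cohesin genes had a slightly lower mean in Zbtb4 knock-out cells, and none of these differences passed the test. The log2 differences ran from -0.13 for Stag2 and Stag1 to -0.037 for Rad21, with a median of -0.066, whereas the median over all genes was 0.0020. limma, with Benjamini-Hochberg adjustment over all genes, called 0 of 10 members, and called 0 of the 22180 genes (0%). At an unadjusted p under 0.05 there were 0 members, while 5.98% of all genes reached it. A lower mean was found for 49.3% of all genes, and for 60.3% of the 5213 genes whose mean signal was at least that of Stag2, as 9 of the 10 members' was. The median came to -0.12 without knock-out array 1, to -0.10 without wild-type array 5 and to -0.037 without knock-out array 4. The knock-out and wild-type arrays overlapped for every member, and did not overlap for 0.987% of all genes.

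**Figure D1:**
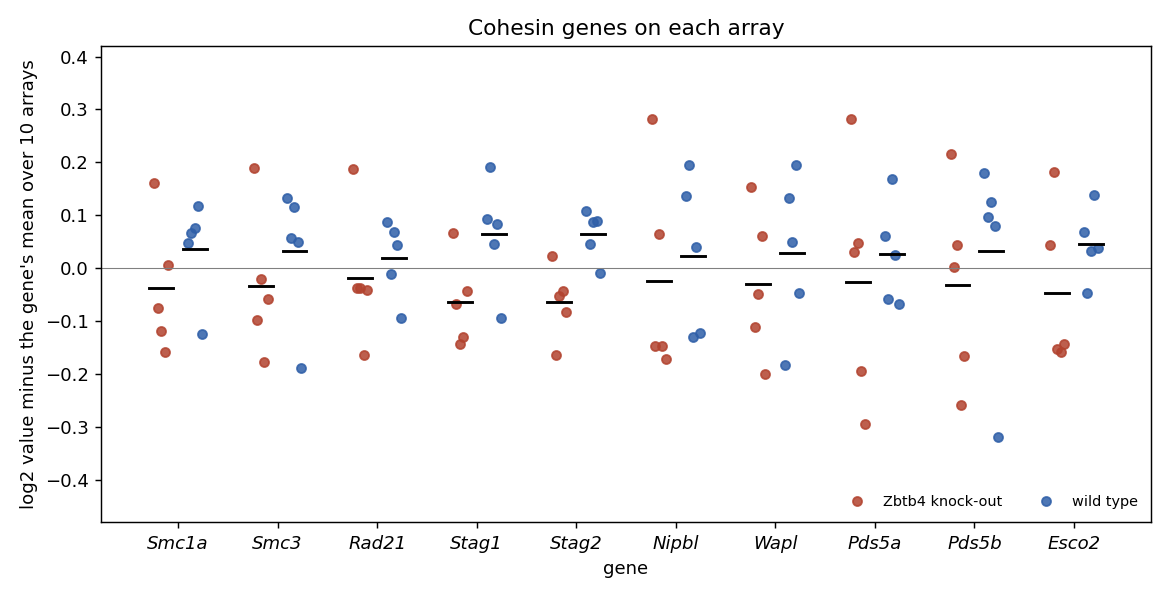
Log2 value of each cohesin gene on each array, shown as the deviation from that gene's mean over 10 arrays, with knock-out arrays in red, wild-type arrays in blue and the mean of each group of 5 as a black bar. The knock-out bar lies below the wild-type bar for all 10 genes, and the points of both groups overlap in each of them.

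The ring subunits differed little between genotypes. Smc1a gave 8.31, 8.07, 8.03, 7.99 and 8.15 on knock-out arrays 1 to 5 and 8.20, 8.21, 8.22, 8.26 and 8.02 on wild-type arrays 1 to 5. Knock-out array 1 was the highest of all 10 arrays and wild-type array 5 lay among the lower knock-out values. The Smc1a difference was -0.074 (standard error 0.082, limma adjusted p = 0.904; exact permutation p = 0.333). It was -0.12 when knock-out array 1 was left out and -0.043 when knock-out array 4 was.

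Smc3, the partner of Smc1a in the ring and the target of acetylation, gave 8.38, 8.09, 8.17, 8.01 and 8.13 in the knock-out and 8.32, 8.25, 8.31, 8.24 and 8.003 in the wild type. The same arrays stood out, with knock-out array 1 highest and wild-type array 5 lowest. Its difference was -0.066 (standard error 0.090, limma adjusted p = 0.926), or -0.12 when either of those arrays was left out and -0.030 when knock-out array 4 was.

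Rad21, the subunit that closes the ring and is cleaved at anaphase, gave 9.09, 8.87, 8.87, 8.74 and 8.86 in the knock-out and 8.99, 8.89, 8.97, 8.95 and 8.81 in the wild type. Knock-out array 1 was again the highest, and knock-out array 4 the lowest. The difference of -0.037 (standard error 0.080, limma adjusted p = 0.955) was the smallest among the members. Omitting knock-out array 4 brought it to -0.00071, and omitting knock-out array 1 to -0.088.

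Stag2 and Stag1, the alternative subunits that join the ring, had the largest differences of the members. Stag2 gave 6.45, 6.26, 6.37, 6.38 and 6.34 in the knock-out and 6.53, 6.47, 6.51, 6.51 and 6.42 in the wild type. Of the knock-out arrays, 4 lay below every wild-type array, and array 1 alone lay within the wild-type range. The difference was -0.13 (standard error 0.067, 95% interval -0.27 to 0.017), and its limma adjusted p was 0.839. The exact two-sided permutation test of Stag2 alone gave an unadjusted p of 0.0159, the smallest of 10 such tests. Its groups no longer overlapped once knock-out array 1 or wild-type array 5 was left out, and its adjusted p was 0.641 at the least over all alternatives.

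Stag1 gave 7.63, 7.50, 7.42, 7.43 and 7.52 in the knock-out and 7.66, 7.76, 7.61, 7.65 and 7.47 in the wild type. All 5 knock-out arrays lay below the wild-type median, and 2 lay below every wild-type array. Its difference was -0.13 (standard error 0.077, limma adjusted p = 0.842; exact permutation p = 0.0794). A difference between genotypes in how Stag2 stood to Stag1 was not found. Their within-array difference changed by -0.00069 with a standard error of 0.054 (exact permutation p = 0.984, adjusted p = 0.984 over the 4 pairs of partner genes compared).

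Nipbl, the loader, which is the gene most often mutated in Cornelia de Lange syndrome, gave 7.93, 7.50, 7.71, 7.50 and 7.48 in the knock-out and 7.78, 7.84, 7.52, 7.69 and 7.52 in the wild type. Its high value again fell on knock-out array 1, and 3 knock-out arrays lay below every wild-type array. The difference was -0.047 (standard error 0.105, limma adjusted p = 0.959). Leaving out knock-out array 1 gave -0.12, and leaving out wild-type array 2 gave -0.0044.

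Wapl, which opens the ring, gave 8.13, 7.86, 7.92, 8.03 and 7.77 in the knock-out and 7.79, 8.10, 8.02, 8.17 and 7.93 in the wild type. Its order of arrays departed from that of the ring subunits, with wild-type array 1 low and knock-out array 4 in the upper part. The difference was -0.059 (standard error 0.094, limma adjusted p = 0.940). Single omissions moved it to -0.11 (wild-type array 1), -0.10 (knock-out array 1), -0.017 (wild-type array 4) and -0.016 (knock-out array 5). The within-array difference of loader and releaser, Nipbl minus Wapl, changed by 0.012 with a standard error of 0.11 (exact permutation p = 0.913, adjusted p = 0.984 over the 4 pairs).

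Pds5a and Pds5b encode paralogous scaffolds that hold Wapl and also help Esco2 and sororin act. Pds5a gave 8.01, 7.76, 7.78, 7.54 and 7.44 in the knock-out and 7.79, 7.67, 7.90, 7.76 and 7.66 in the wild type. Knock-out arrays held both the highest and the lowest values, and the difference was -0.052 (standard error 0.105, limma adjusted p = 0.952). It turned to 0.015 without knock-out array 5.

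Pds5b gave 7.59, 7.38, 7.42, 7.12 and 7.21 in the knock-out and 7.55, 7.47, 7.50, 7.46 and 7.06 in the wild type. Wild-type array 5 was the lowest of all, apart from the other 4 wild-type arrays, which lay within 7.46 to 7.55. The difference was -0.065 (standard error 0.113, limma adjusted p = 0.946), and -0.15 without that array. Omitting knock-out array 4 gave -0.0085. Pds5b minus Pds5a changed by -0.013 with a standard error of 0.081 (exact permutation p = 0.905, adjusted p = 0.984 over the 4 pairs).

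Esco2, the S-phase acetyltransferase whose loss causes Roberts syndrome, was the only member with a mean signal below the median gene, and the level below which signal is background is not known. It gave 4.17, 4.30, 3.97, 3.97 and 3.98 in the knock-out and 4.19, 4.08, 4.16, 4.26 and 4.16 in the wild type. The knock-out arrays split into a pair within or above the wild-type range and 3 below it. The difference was -0.092 (standard error 0.084, limma adjusted p = 0.884; exact permutation p = 0.294), and it reached -0.15 without knock-out array 2.

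Esco1, the acetyltransferase that works through the whole cell cycle, had a higher mean in the knock-out. It gave 6.52, 6.84, 6.41, 6.59 and 6.38 there and 6.50, 6.22, 6.54, 6.42 and 6.07 in the wild type, a difference of 0.20 with a standard error of 0.11 (limma adjusted p = 0.842). Within arrays, Esco2 minus Esco1 was lower in the knock-out by a log2 difference of -0.29 (standard error 0.095), and all 5 knock-out arrays lay below the wild-type median. The exact permutation p of 0.0159 became 0.0635 after adjustment over the 4 pairs. It passed only without wild-type array 3, with a difference of -0.34 and an adjusted p of 0.0317. With the mean signal of 3 Y-linked genes as a covariate, the difference was -0.29 (permutation p = 0.0635, adjusted 0.254). The value compares changes within arrays and says nothing about which transcript is more abundant.

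**Figure D2:**
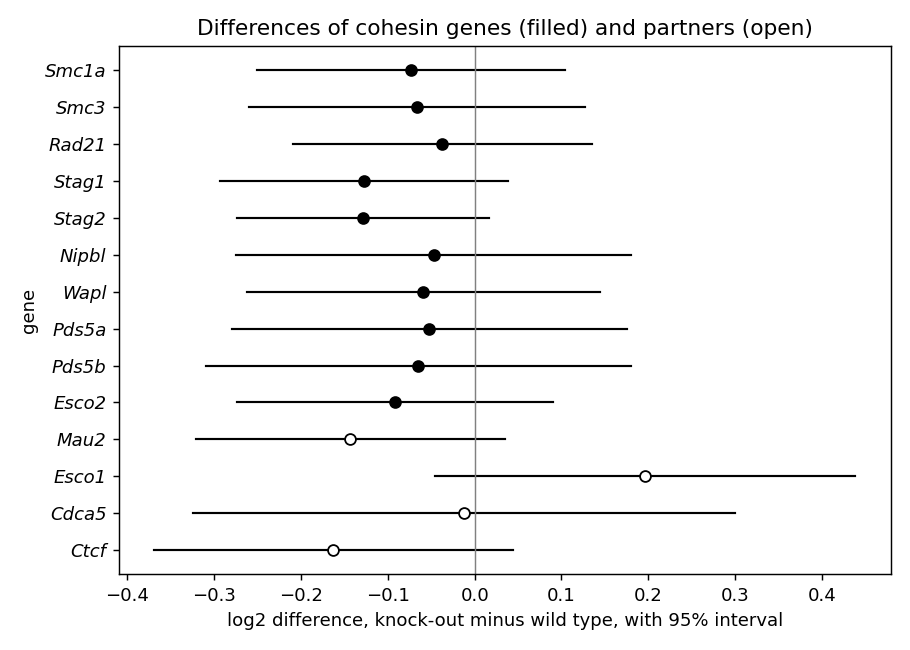
Log2 difference of each gene, knock-out minus wild type, with its 95% interval from the limma fit, for the 10 cohesin genes (filled) and 4 partners (open). Every interval includes 0, and Esco1 is the only gene shown with a difference above 0, at 0.20.

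The intervals bound the size of a change in signal only if the samples are independent, which is not known. Over the 10 members, the lower ends of the 95% intervals, taken gene by gene, correspond to signals 1.16-fold lower in the knock-out for Rad21 to 1.24-fold lower for Pds5b. The upper ends correspond to signals 1.01-fold higher for Stag2 to 1.13-fold higher for Nipbl. The median standard error was 0.087 for the members and 0.101 for all genes.

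Most further regulators of cohesin also had a lower mean, and none passed. Of 12 measured further regulators of cohesin, which cover loading, acetylation, protection, cleavage and boundary factors, 11 had a lower mean and 1, Esco1, a higher one, with a median of -0.11 and 0 past the threshold. Mau2, the partner of Nipbl, averaged 6.41 ± 0.047 in the knock-out against 6.55 ± 0.15 in the wild type (SD, n = 5 each) and differed by -0.14 (limma adjusted p = 0.842). Ctcf, the DNA-binding protein at which loop extrusion halts, differed by -0.16 (limma adjusted p = 0.842), and Cdca5, which encodes sororin, by -0.013 (limma adjusted p = 0.993). Espl1, the separase that cuts Rad21, differed by -0.20 (limma adjusted p = 0.839).

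Factors that help establish cohesion at replication forks were lower in 8 of 8 measured genes, with a median of -0.090 and 0 past the threshold. Of these, 2 had an unadjusted p under 0.05, as did 5.98% of all genes, 4 of 17 G2/M genes, 2 of 20 S-phase genes and 0 of the 12 further regulators. Atad5, which unloads the sliding clamp, differed by -0.37 and the helicase gene Ddx11 by -0.21, with limma adjusted p-values of 0.825 and 0.830.

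Genes of cohesin used in meiosis had signals at the bottom of the range. The 6 measured, among them Smc1b, Rad21l, Rec8 and Stag3, had means from 1.98 to 3.12, all below the median gene. Their differences were small, with 4 higher, 2 lower and a median of 0.020, and 0 passed.

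Related ring complexes also had mostly lower means. Condensin, which compacts mitotic chromosomes, had 6 of 7 subunits lower, with a median of -0.17, and its subunit Smc4 differed by -0.21 (limma adjusted p = 0.839). The Smc5 and Smc6 complex, which acts in DNA repair, had 5 of 7 lower, with a median of -0.081, and Eid3 differed by -0.29 (limma adjusted p = 0.830). None of the 14 genes passed. Whether cohesin differs from either complex was not tested.

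Most of the cohesin genes varied together from array to array. Each array was given a cohesin score, the mean over the 10 genes of the deviation from the gene's mean over all arrays. The score was -0.037 ± 0.12 in the knock-out and 0.037 ± 0.079 in the wild type (SD, n = 5 each). Knock-out array 1 had the highest score, 0.16, and was the highest array for 6 of the 10 genes. Knock-out arrays 4 and 5 had scores of -0.14 and -0.12 and wild-type array 5 had -0.10, and these 3 arrays were among the lowest 3 for 8, 7 and 6 genes. The scores of knock-out arrays 2 and 3 were -0.049 and -0.042, and those of wild-type arrays 1 to 4 ran from 0.064 to 0.086. The knock-out range thus enclosed the wild-type range.

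The range of values within a genotype was larger than the difference between genotypes for every member, except Stag2 in the wild type. Within the knock-out, values ranged over 0.19 for Stag2 to 0.58 for Pds5a, and within the wild type over 0.12 for Stag2 to 0.50 for Pds5b. The Stag2 difference of -0.13 stands beside a wild-type range of 0.12.

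All 45 pairs of members had a correlation above 0 over the 10 arrays, with a median r of 0.54. Permutation tests with adjustment over the 45 pairs called 7 of them by Pearson's r and 8 by Spearman's rho, with 6 called by both. The matching shares over pairs of other genes of like signal were not computed. These counts therefore do not show that varying together is particular to cohesin. With the mean of each genotype removed, 44 pairs stayed above 0, and Stag2 and Esco2 had r = -0.21. Smc3 and Rad21 had r = 0.94 (permutation p = 3e-05, adjusted 0.000675) and rho = 0.954 (permutation p = 0.0001, adjusted 0.0015), and r = 0.916 without the 2 arrays farthest from the median of Smc3. Smc3 and Pds5b had r = 0.936 (permutation p = 3e-05, adjusted 0.000675) and rho = 0.988 (permutation p = 2e-05, adjusted 0.00045), and r = 0.859 without the 2 farthest arrays. Smc1a and Smc3, the pair that dimerises in the ring, had r = 0.887 (permutation p = 0.001, adjusted 0.009) and rho = 0.842 (permutation p = 0.00377, adjusted 0.0281), and r = 0.791 without the 2 farthest. With the mean of each genotype removed, the r of these 3 pairs was 0.939, 0.936 and 0.878. All points of a pair share an array and an RNA sample, and whether the samples are independent is not known.

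Esco2 and Wapl had lower r with the other members, and were set apart for this on the same arrays. The median r was 0.38 over the 9 pairs with Esco2 and 0.39 over the 9 with Wapl. It was 0.69 over the 28 pairs of the other 8 genes, a gap that follows in part from that choice. Esco2 also had the lowest mean signal of the members. Its r with the G2/M score described below, 0.613, was close to that of Stag2 (0.614) and Nipbl (0.626). The lowest, 0.11, was between Nipbl and Esco2. Stag1 and Stag2 had r = 0.693 (permutation p = 0.0279, adjusted 0.0837; rho = 0.721, permutation p = 0.0238, adjusted 0.0815), or 0.755 without the 2 farthest arrays, and 0.447 with genotype means removed.

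**Figure D3:**
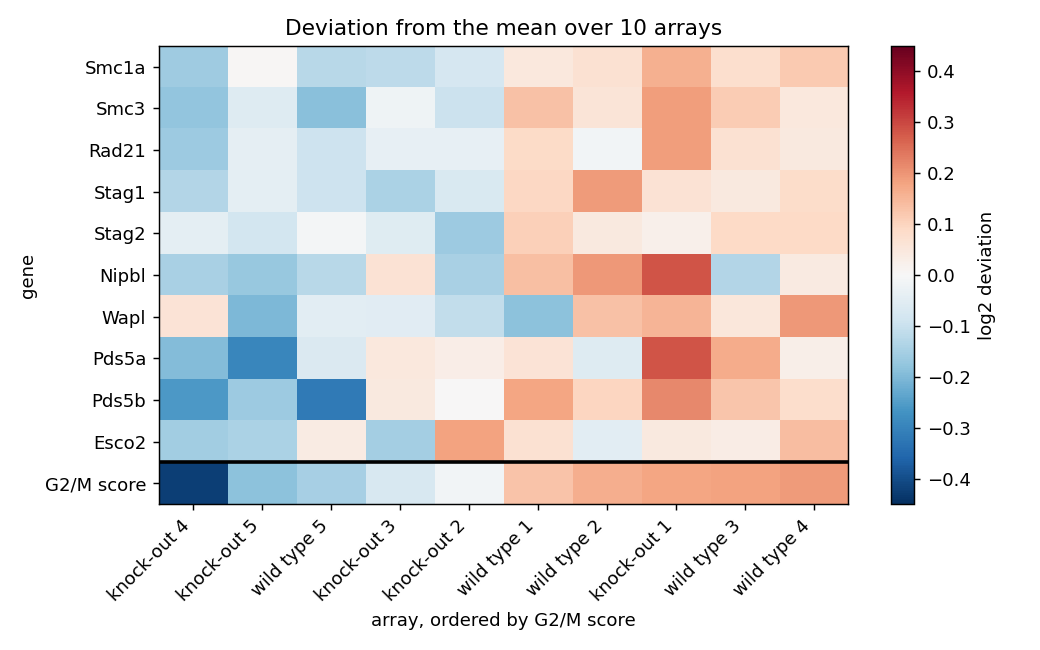
Deviation of each cohesin gene from its mean over 10 arrays (colour, log2), with arrays ordered from left to right by the G2/M score in the bottom line. Knock-out array 4, at the left with a G2/M score of -0.42, is low for most genes, and Wapl has the lowest r with that score among the 10 genes, 0.364.

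Genes of dividing cells moved with the cohesin genes across arrays. A G2/M score was formed in the same way from 17 measured genes of G2 phase and mitosis, none of them a member, whose median difference was -0.20 with 17 of 17 lower and 0 past the threshold. The G2/M score was -0.42 on knock-out array 4, -0.18 on knock-out array 5 and -0.15 on wild-type array 5, and 0.18 on knock-out array 1. It ran from 0.13 to 0.19 on wild-type arrays 1 to 4, and was -0.074 and -0.012 on knock-out arrays 3 and 2. The arrays thus fell into 5 at 0.13 to 0.19 and 5 at or below -0.012, and each set is too small for a correlation of its own. Of the 10 members, 6 correlated with it at an adjusted permutation p under 0.05 over the 10 relations computed by Pearson's r. By Spearman's rho 3 did, namely Smc1a, Rad21 and Pds5b. The share of all genes that correlate with the score at this threshold was not computed. The counts therefore do not show a trait particular to cohesin.

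Pds5b had r = 0.870 with the G2/M score (permutation p = 0.00112, adjusted 0.00487) and rho = 0.770 (permutation p = 0.0129, adjusted 0.0430), and r = 0.821 without the 2 arrays farthest from the median score. Smc1a had r = 0.847 (permutation p = 0.00195, adjusted 0.00487) and rho = 0.891 (permutation p = 0.00103, adjusted 0.0103), and r = 0.956 without the 2 farthest. For Pds5a, r fell from 0.732 to 0.485 without those arrays, so that relation rests in part on them. Wapl had r = 0.364 (permutation p = 0.304, adjusted 0.304) and rho = 0.564 (permutation p = 0.0973, adjusted 0.0973). Esco2 had r = 0.613 (permutation p = 0.0588, adjusted 0.0655) and rho = 0.576 (permutation p = 0.0888, adjusted 0.0973), and r = 0.226 without the 2 farthest arrays.

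**Figure D4:**
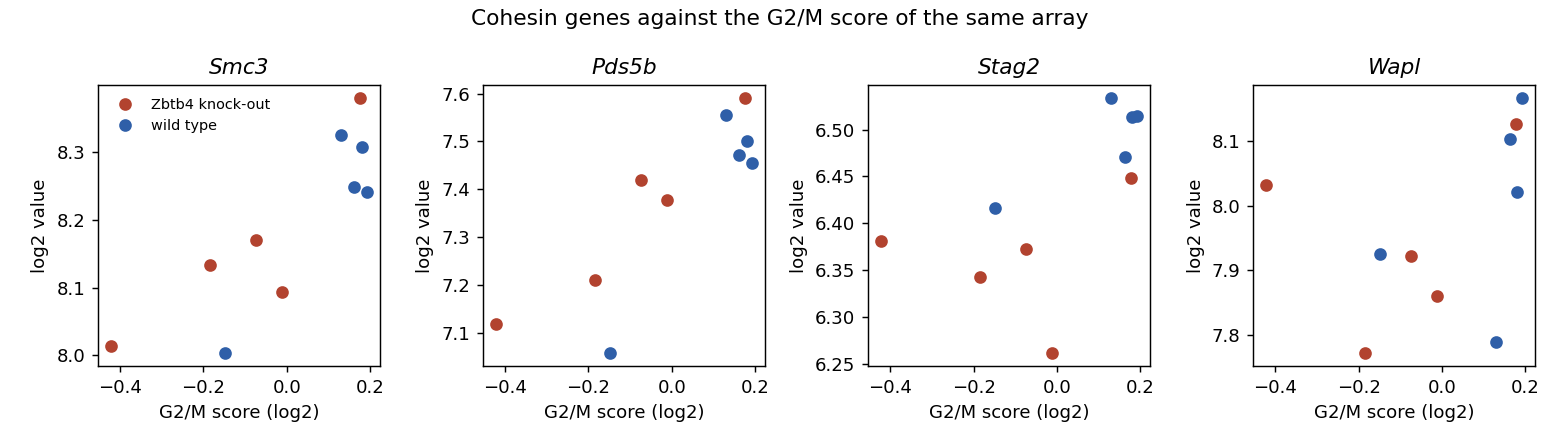
Log2 value of Smc3, Pds5b, Stag2 and Wapl on each array (vertical) against the G2/M score of the same array (horizontal), with knock-out arrays in red and wild-type arrays in blue. Smc3 and Pds5b tend to be higher at higher scores over all arrays, while Stag2 (r = 0.614) and Wapl (r = 0.364) follow the score less closely. In the wild type the rise of Smc3 and Pds5b rests on array 5. Among wild-type arrays 1 to 4, these genes are highest on array 1, which has the lowest score, and lowest on array 4.

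With the G2/M score as a covariate, the sign of the difference turned for 6 members. Smc1a then differed by 0.029, Smc3 by 0.062, Rad21 by 0.065, Nipbl by 0.078, Pds5a by 0.096 and Pds5b by 0.13, and the median came to 0.045. The other 4 stayed lower, Stag2 with -0.10, Stag1 with -0.052, Esco2 with -0.025 and Wapl with -0.011. None of these values passed. Esco2 minus Esco1 was -0.30 with this covariate (permutation p = 0.0159, adjusted 0.0635). That permutation moved the genotype labels with the score held in place, so it is not exact where the score and genotype are related. The score itself is measured on the same arrays and differs between genotypes, so genotype and the G2/M score cannot be told apart where they move together. With it, the medians of the further regulators, the fork factors and condensin came to 0.044, 0.025 and 0.0074, and that of the Smc5 and Smc6 complex to -0.064.

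Smc1a and Stag2 lie on the X chromosome, and the arrays differed in sex markers. Xist, transcribed from an inactive X, was at 10.11 to 10.32 on 6 arrays and at 2.99 to 4.50 on the other 4, where the Y-linked gene Eif2s3y was at 6.83 to 7.17. Each genotype held 2 of the arrays with Y-linked signal, numbers 1 and 3 in both. Smc1a ran from 8.03 to 8.31 on those 4 arrays and from 7.99 to 8.26 on the other 6, and Stag2 from 6.37 to 6.53 and from 6.26 to 6.51, so both overlapped. Kdm6a, a gene that escapes X inactivation and was picked after its values were seen, ran from 6.21 to 6.61 and from 6.79 to 7.09, without overlap. Other genes known to escape did overlap, Kdm5c with 7.08 to 7.22 against 7.10 to 7.70 and Ddx3x with 9.04 to 9.31 against 9.16 to 9.60. When the mean signal of 3 Y-linked genes was added to the fit, Smc1a differed between genotypes by -0.072 and Stag2 by -0.13.

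**Figure D5:**
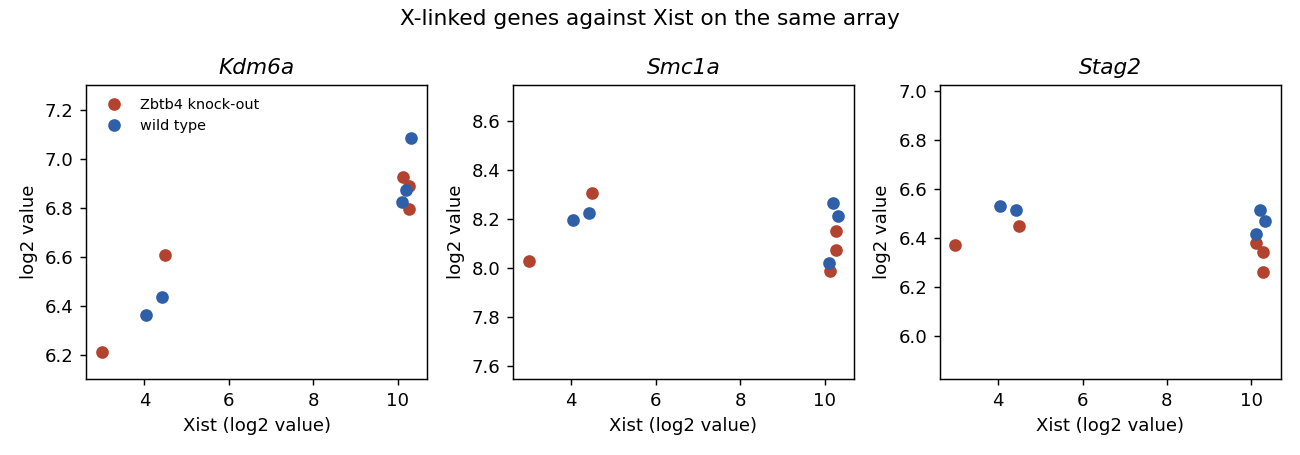
Log2 value of the X-linked genes Kdm6a, Smc1a and Stag2 on each array (vertical, the same span in each panel) against Xist (horizontal), with knock-out arrays in red and wild-type arrays in blue. Kdm6a is higher on the 6 arrays with high Xist, whereas Smc1a and Stag2 overlap between the 2 sets of arrays.

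Other genes followed Smc3 even more closely than its partners did. With genotype means removed, the 3 genes most like Smc3 over the 10 arrays, among 10373 genes above the median signal, were Tmpo (r = 0.961), Sbno2 (r = 0.960) and Gtf2i (r = 0.955). Tmpo encodes a lamina-associated protein of the inner nuclear membrane. Rad21 came in place 11, Pds5b in place 14 and Smc1a in place 57 of this order. For Esco2 the 3 most alike were Zscan22 (r = 0.969), Galnt10 (r = 0.915) and Stk40 (r = 0.897), none of them in the lists used here. These values are descriptions over 10 arrays chosen as the highest among these genes.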

How the data were processed

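Gene expression was measured on one-colour Affymetrix arrays with biotin-labelled total RNA, per the labels, in 5 Zbtb4 knock-out and 5 wild-type samples. The authors deposited 1 table of log2 values for 41345 probe sets, a scale judged from their range. The summary of probes and the normalization are not named in the labels. Had arrays been equalised, a change in RNA content per cell would not show, and no background level came with the values.

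Probe sets with 1 symbol in the platform annotation (23521) were kept, 23328 of them found in RefSeq by Entrez identifier and 0 renamed. The probe set of highest mean stood for each of 22180 genes. Differences were fitted over all genes with limma 3.58.1 in R 4.3.3 (lmFit, eBayes, Benjamini-Hochberg threshold 0.05). Exact permutation tests used the 252 choices of 5 from 10 arrays, and correlations 100000 permutations (scipy 1.17.1, numpy 2.4.6). Scripts were tested on simulated data. The number of arrays limits the precision.

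Members, gene lists and tests were chosen with earlier results of these data known. All members were named whatever their values, as were Zbtb4, Ctcf, Mau2, Esco1, Cdca5 and Mki67. Sex markers and the 3 genes most correlated with Esco2 and Smc3 were also named. Up to 3 genes of smallest p were named per related list, among them Espl1, Atad5, Ddx11, Smc4 and Eid3. No gene of the G2/M and S-phase lists was named on that ground. Mki67 differed by -0.20 (limma adjusted p = 0.842). Of the S-phase list, 19 of 20 genes had a lower mean, with a median of -0.20. Epithelial markers had 4 of 6 means lower, muscle markers 4 of 7 and erythroid markers 0 of 2. Promoter letters came from a RefSeq table. Figures were drawn with matplotlib 3.10.9. The alternatives were quantile normalization, centring array medians, leaving out the dimmest 40% of genes, averaging or testing singly all probe sets, trend and robust eBayes, array weights, blocking on replicate number, Y-linked and G2/M covariates, and each array left out. Their effect is in the closing section.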

Additional observations from a re-analysis of the deposited data

Results flagged for a closer look

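In 3 of 28 groups of 5 values examined (the members and the 4 pairs of partner genes in each genotype), one array lay far from the others, where chance flags about 1 in 20. All 3 were wild-type array 5, on genes that varied together. The 3 flags are thus not independent and cannot be set against that rate. Smc1a was at 8.02 there, with the nearest wild-type array at 8.20. Smc3 was at 8.003, with the nearest at 8.24, and Pds5b was at 7.06, with the nearest at 7.46. The G2/M score of that array was -0.15, the lowest of the wild type. Without it, the differences were -0.11 for Smc1a, -0.12 for Smc3 and -0.15 for Pds5b, and none passed.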

How the results depend on the processing

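The count of members past the threshold stayed at 0 under all 20 alternatives run, and over 210 member differences computed the smallest adjusted p was 0.641. Leaving out dim genes, averaging or testing singly all probe sets, trend and robust eBayes, and blocking on replicate number left every member's difference unchanged. Such settings could alter only p-values, not signs. Of the 210, 7 had the opposite sign, 6 of them with the G2/M covariate (Smc1a 0.029, Smc3 0.062, Rad21 0.065, Nipbl 0.078, Pds5a 0.096, Pds5b 0.13) and Pds5a without knock-out array 5 (from -0.13 to 0.015 over single arrays left out). The number of members with a lower mean was 4 with that covariate, and 9 to 10 with single arrays left out. The median difference, leaving out each array in turn, lay between -0.12 and -0.037 and was -0.085 without knock-out array 4 and wild-type array 5, chosen after seeing the data, -0.043 after quantile normalization, -0.096 with array weights and 0.045 with the G2/M covariate. The S-phase median came to -0.011 with that covariate. Members whose genotypes did not overlap numbered 0 to 1 with single arrays left out, the 1 being Stag2.

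Over the same omissions, Stag2 minus Stag1 ran from -0.037 to 0.023, Pds5b minus Pds5a from -0.078 to 0.024, or 0.036 with the G2/M covariate, Nipbl minus Wapl from -0.032 to 0.093, and Esco2 minus Esco1 from -0.34 to -0.22, with an adjusted p of 0.0317 at the least. The meiotic list had no gene left without the dimmest 40%. Whether replicate numbers pair the samples is not known. Eif2s3y was high on arrays 1 and 3 of both genotypes and low on the other arrays, so sex markers matched by number. Over all genes, 1 of 5 same-numbered pairs had deviations correlated above 0.1, at r = 0.17, and the others lay between -0.045 and 0.059. These correlations do not settle pairing. With the replicate number as a block, the members' median was -0.066 with 0 past the threshold, and Esco2 minus Esco1 was -0.29 (exact paired permutation p = 0.0625, the smallest possible for 5 pairs). Signal over background is not known and limits Esco2, the meiotic genes and most endothelial markers.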
